A study of Mus musculus with 36 samples.

Results

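The comparison described here set XY mouse gonads carrying a deletion in the Foxl2 3′ UTR (Foxl2-3′-UTR del/del, "mutants") against XY control gonads, both at embryonic stage E12.5, and comprised 6 of the 36 samples of the series, 3 per group. Members were the 6 library columns of the E12.5 Foxl2 count table, whose names identify 3 mutant and 3 male control libraries. The series as a whole asked how the miR-17~92 microRNA cluster acts in sex determination of the mouse, and the Foxl2 3′ UTR mutants address the contribution of a single miR-17 target site. The mutant embryos were XY, carried the deletion on both alleles, and were made by CRISPR/Cas9 editing of XY embryonic stem cells of the G4 line, an F1 hybrid of C57BL/6J and 129, followed by tetraploid aggregation, in which the embryo derives from the stem cells. The controls were labelled as wild-type (WT) males, and the sources used here do not state the colony or strain of these embryos. The miR-17~92 knockouts of the bulk RNA-seq came from Cre/LoxP breeding with a floxed line on a C57BL/6 × 129S4/SvJae background and the Tg(CAG-cre)1Nagy transgene. The sources also do not state whether exact embryo stage or the batch of collection and sequencing was matched between the groups. The groups differed in the edit and may have differed in stem cell derivation, strain background, exact stage and batch along with it. These cannot be told apart in any result given here. Each library was made from 2 pairs of isolated gonads, so a library is a pool, and nothing in the sources states whether the 3 pools of a group came from separate litters; p-values measure only the spread between these pools.

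Foxl2 encodes a forkhead transcription factor of the pre-granulosa cells, the supporting cells of the fetal ovary. In the XY gonad the supporting cells instead become Sertoli cells under Sry and Sox9, and Foxl2 is kept at a low level. MicroRNAs pair through their seed, the bases near their 5′ end, with complementary sites in 3′ UTRs and lower the stability or translation of the messenger RNA.

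The sequences below show the site the mutation was aimed at and the microRNAs that can pair with its seed match. In the GENCODE annotation of GRCm38, the Foxl2 3′ UTR (1755 bases of a transcript of 3256 bases) held 1 match to the miR-17 seed. It lies in the UTR on the plus strand at chr9:98958043-98958049, bases 1255 to 1261 of the UTR, and is shown in capitals within its surroundings at chr9:98958033-98958059. In the microRNAs, taken from RefSeq for GRCm38.p6, the capitals mark the seed, bases 2 to 8. miR-17-5p (chr14:115043684-115043706, plus strand) and miR-20a-5p (chr14:115044183-115044205, plus strand) belong to the miR-17~92 cluster, and the other 4 lie on chromosomes X and 5.
Foxl2 3′ UTR site: gggaactagaGCACTTTtgttgtgttt
mmu-miR-17-5p: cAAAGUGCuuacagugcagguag
mmu-miR-20a-5p: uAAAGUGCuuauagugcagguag
mmu-miR-20b-5p: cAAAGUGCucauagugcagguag
mmu-miR-93-5p: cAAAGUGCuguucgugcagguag
mmu-miR-106a-5p: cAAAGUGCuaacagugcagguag
mmu-miR-106b-5p: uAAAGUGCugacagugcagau
All 6 microRNAs shared the seed AAAGUGC, whose reverse complement is the GCACTTT of the UTR. The exact bases removed in the mutants are not given in the sources used here, and counts per gene do not show the deletion itself.

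The labels list Foxl2 mutant samples from eye as well as from gonad at E12.5, 3 of each, and the column names give no tissue, so the tissue was read from marker genes. Levels between genes are given as counts per 1000000 library counts (CPM) per kb of exon. Gonadal markers were high in all 6 libraries. Nr5a1, which encodes the orphan nuclear receptor SF1, ranged from 52.5 to 84.2, Gata4 from 84.6 to 125, Sox9 from 23.3 to 29.9, Amh, the anti-Müllerian hormone gene of Sertoli cells, from 259 to 588, and the germ cell helicase gene Ddx4 from 19.2 to 54.3 CPM per kb. Several defining eye genes were at or near 0. The lens crystallin gene Cryaa did not exceed 2 counts in any library, the pigment cell gene Tyr did not exceed 3 counts, and the lens gene Foxe3 had none. The median level over the Sertoli cell markers was 25.9 CPM per kb, against 0.0348 for the neural retina markers and 0.0497 for the lens markers. The eye lists also hold genes that other tissues express, and some were detected, such as Dct with up to 337 counts. The medians were 0.489 for the pigment epithelium list and 1.43 for the periocular mesenchyme list, against 2.75 for the pre-granulosa list. A median level under 0.1 CPM per kb was found for 6 of 8 retina, 4 of 7 lens, 2 of 6 pigment epithelium and 1 of 5 periocular genes. All 6 libraries thus carried the markers of XY gonad at high levels, and the genes most restricted to lens and pigment cells were at or near 0.

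**Figure D1:**
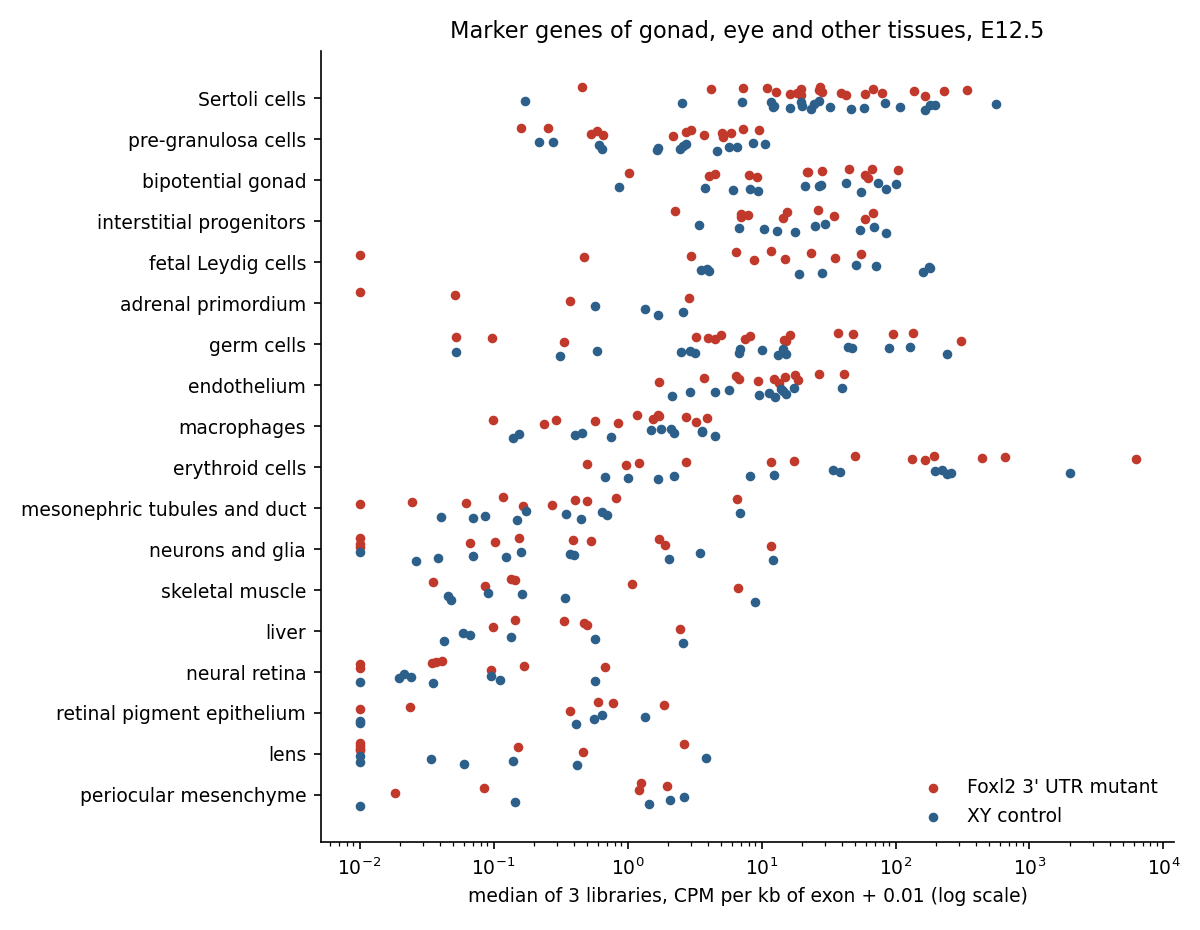
Levels of marker genes of gonad, eye and other tissues at E12.5, on a log axis of CPM per kb of exon with 0.01 added, each point the median of a gene over the 3 mutant or the 3 XY control libraries. Most Sertoli and early gonadal genes lie far above most retina and lens genes, in mutants and controls alike (medians over all libraries 25.9 for Sertoli, 0.0348 for neural retina and 0.0497 for lens markers).

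Total counts ranged from 13197693 to 31012525 over the 6 libraries, with replicates of a group correlated across genes at 0.981 to 0.993 and pairs from different groups at 0.966 to 0.990. The 3 control columns were compared with the XY controls of the miR-17~92 table of the same age over 19628 shared genes. Each control column correlated with its namesake at 0.982 to 0.983, and 27.4% to 32.9% of genes had equal counts and 76.7% to 78.5% of genes with over 50 counts were within 10%. For any other pair of a control column with a column of that table, the correlations were 0.947 to 0.979, with 11.1% to 15.7% equal and 0.625% to 31.4% within 10%. The control columns were therefore taken as the same 3 control libraries counted in another way. What differed in the counting was not tested. Each contrast below that uses XY controls at E12.5, XX or XY miR-17~92 KO against XY control, shares these 3 libraries with the contrast reported here.

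Of 14305 genes with at least 1 CPM in at least 2 libraries, 276 (1.93%) differed between mutants and controls at an FDR under 0.05, the threshold used throughout. Of these, 113 (0.79%) were higher and 163 (1.14%) lower in the mutants, 97 and 156 of them protein coding. The median log2 fold change was 1.31 for the higher and -1.41 for the lower genes, against -0.01 over all genes tested. The change was under 2-fold for 37 of the higher and 27 of the lower genes. An unadjusted p under 0.05 was reached by 2504 genes, and 23.7% of all genes tested had no overlap between the 3 mutant and the 3 control libraries. The counts of calls depended on single libraries: without mutant 3 there were 53 higher and 35 lower, without control 1 there were 44 and 30, and without control 3 there were 44 and 47. As a scale for these numbers, XX control gonads differed from the same XY controls in 3413 of 14348 genes (23.8%) and XY miR-17~92 KO gonads in 2951 (20.6%).

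**Figure D2:**
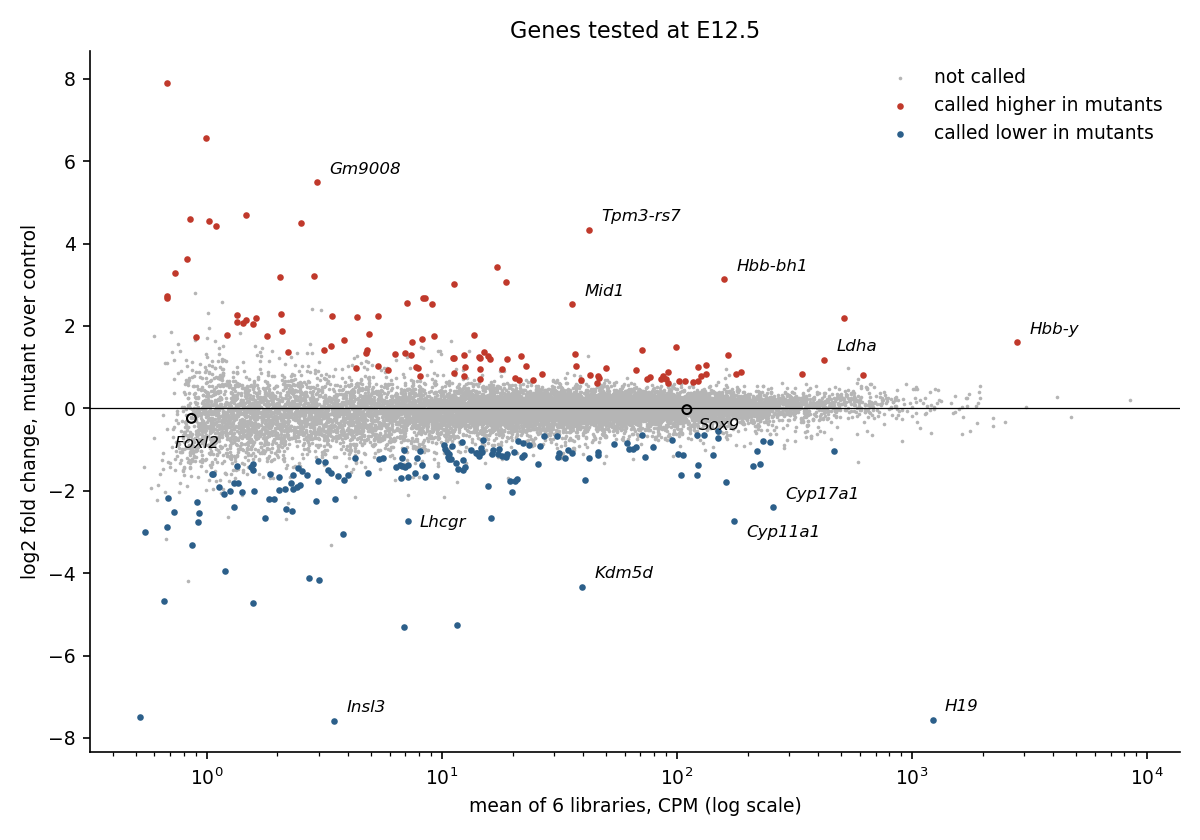
Log2 fold change of mutant over XY control at E12.5 (vertical axis) against mean CPM (horizontal log axis), each point one of 14305 genes tested, with the 113 genes called higher and the 163 called lower in colour. H19 is the low point at high expression, and most genes lie close to 0.

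Foxl2 itself was barely detected in either group. Its counts were 9, 12 and 26 in the mutants and 14, 39 and 9 in the controls, or 0.297, 0.8 and 1.36 CPM in the mutants and 0.538, 1.49 and 0.676 CPM in the controls. The groups overlapped, and the log2 fold change was -0.24 ± 0.57 (SE, n = 3 and 3), with a 95% interval from -1.5 to 1.02 and an FDR of 0.864. An exact two-sided permutation test over all 20 assignments of the libraries gave p = 0.9, where 0.1 is the smallest p this design allows. For comparison, Foxl2 stood at 50.8 ± 10.7 CPM (SD, n = 3) in XX control gonads, a log2 difference of 5.59 from the XY controls, and of 4.92 in XY miR-17~92 KO gonads. The upper bound of the interval in the mutants lay far below both. Without mutant 1 the estimate changed sign, to 0.24. Within 1 Mb of Foxl2, 16 of 32 annotated neighbours were tested and none was called, with log2 fold changes from -0.81 to 0.42 and a lowest FDR of 0.222. On the microRNA side, Mir17hg, the host transcript of the miR-17~92 cluster, read 20.9, 16.4 and 22.6 CPM in the mutants and 11.6, 19 and 25.6 CPM in the controls, and none of 11 host and processing genes was called by edgeR or DESeq2 or passed an unadjusted p of 0.05.

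No listed gene of the testis supporting cells was called. Over 20 Sertoli cell genes tested by edgeR, the median log2 fold change was -0.03 and the range -0.65 to 0.57. Sox9, the transcription factor that directs Sertoli differentiation, stood at 118, 96.3 and 113 CPM in the mutants and 112, 124 and 99.1 CPM in the controls, and Dhh, the ligand that Sertoli cells send to the interstitium, at 120.2, 111 and 118 CPM in the mutants and 108, 128 and 103 CPM in the controls. The groups overlapped for both. Amh had the lowest fold change of the list, at 433, 573 and 574 CPM in the mutants and 982, 941 and 554 CPM in the controls, where control 3 lay among the mutants (log2 fold change -0.65 ± 0.22, FDR 0.165). Fgf9, which acts with Sox9 to hold the testis fate, had the highest, at 20.3, 17.3 and 19.6 CPM in the mutants and 11.1, 15.6 and 11.7 CPM in the controls, with no overlap but an FDR of 0.137. At an unadjusted p under 0.05 there were 1 higher and 2 lower Sertoli genes, DESeq2 called 1 lower, and leaving out mutant 1 gave 1 lower. In XX control gonads the same genes had a median log2 difference of -4.76 from the XY controls, with 18 of 21 called lower.

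No listed gene of the ovarian supporting cells was called either. Over 14 pre-granulosa genes tested by edgeR, the median log2 fold change was -0.16. Wnt4 and Rspo1, the secreted signals that promote ovarian fate, had log2 fold changes of -0.43 ± 0.23 and -0.22 ± 0.18, and Fst, the activin antagonist follistatin, of -0.50 ± 0.46, each with overlapping groups. The lowest value was that of Sp5, a target of β-catenin signalling, at 1.68, 0.333 and 1.1 CPM in the mutants and 3.49, 3.79 and 3.16 CPM in the controls (log2 fold change -1.65 ± 0.41, FDR 0.0733), and its groups did not overlap. At an unadjusted p under 0.05 there were 1 higher and 1 lower, and DESeq2 called the same numbers. Without mutant 1, edgeR called 1 lower. In XX controls 11 of the 14 were called higher than in XY controls, with a median log2 difference of 2.44, and in XY miR-17~92 KO gonads the median was 2.05.

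**Figure D3:**
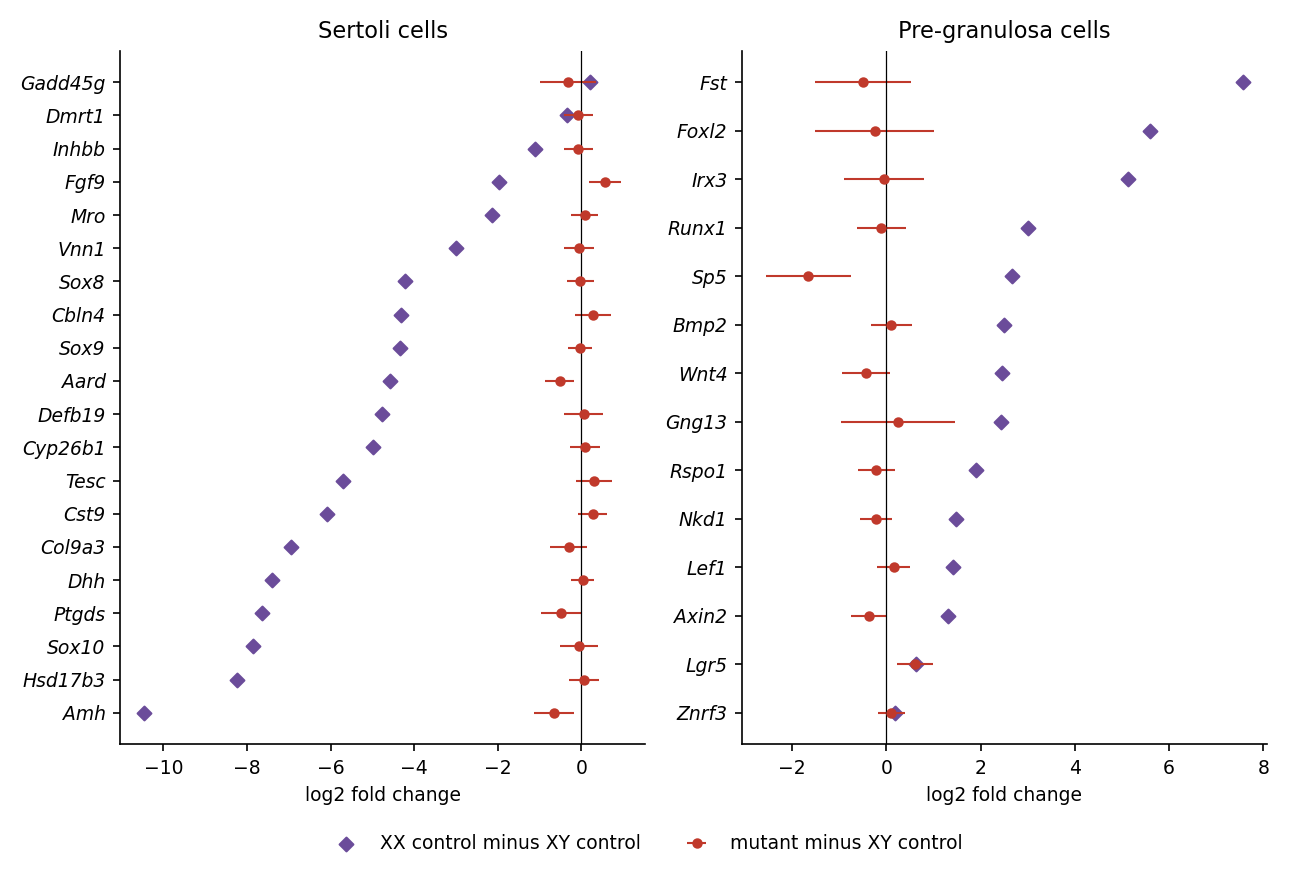
Log2 differences for Sertoli and pre-granulosa genes at E12.5 (1 gene per line), mutant minus XY control as circles with 95% intervals and XX control minus XY control as diamonds; both contrasts share the 3 control libraries. The mutant values cluster around 0 (medians -0.03 and -0.16), while the XX values lie far to either side (medians -4.76 and 2.44).

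The most calls of any list fell on the markers of fetal Leydig cells, the steroid-producing cells of the fetal testis interstitium. Of 10 marker genes, 8 were called lower in the mutants and none higher, where 1.14% of all genes were lower, and 9 of the 10 had no overlap between groups, against 23.7% of all genes. The median log2 fold change was -1.70, and it is the same with Insl3 at its bound. Several enzymes and carriers of steroid synthesis were among the 8. Star, which moves cholesterol into the mitochondrion, read 48.8, 84.4 and 45.9 CPM in the mutants and 209, 112 and 231 CPM in the controls, 3.09-fold lower (log2 fold change -1.63 ± 0.29, FDR 0.0241). Cyp11a1, the side-chain cleavage enzyme that starts steroid synthesis, read 30.9, 80.3 and 27.6 CPM in the mutants and 433, 137 and 342 CPM in the controls and was 6.61-fold lower (-2.72 ± 0.47, FDR 0.0207). Cyp17a1, the 17α-hydroxylase and lyase, read 65, 134 and 45.9 CPM in the mutants and 493, 235 and 569 CPM in the controls, 5.3-fold lower (-2.41 ± 0.41, FDR 0.019). In these genes every mutant lay below every control, with mutant 2 the highest mutant and control 2 the lowest control.

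In the remaining called Leydig genes too, all mutants lay below all controls. Hsd3b1, the 3β-hydroxysteroid dehydrogenase, read 102, 176 and 71.5 CPM in the mutants and 338, 215 and 363 CPM in the controls (log2 fold change -1.39 ± 0.30, FDR 0.0498), and Lhcgr, the luteinising hormone receptor, 3.57, 7 and 2.78 CPM in the mutants and 31, 14.2 and 38.3 CPM in the controls (-2.67 ± 0.40, FDR 0.0113). Fdx1, the electron donor of the mitochondrial P450 enzymes, read 27.3, 28.3 and 21.1 CPM in the mutants and 58.7, 49.2 and 70 CPM in the controls (-1.21 ± 0.17, FDR 0.00932) and was the only one of the 8 that kept its call without any single library. Ren1, the renin gene, read 51.8, 109.8 and 58.5 CPM in the mutants and 343, 148 and 265 CPM in the controls (-1.78 ± 0.33, FDR 0.0286). Insl3, the hormone of testis descent, read 0, 0 and 0.105 CPM in the mutants and 2.42, 16.2 and 2.18 CPM in the controls, at least 45.7-fold lower against a floor of 3 counts per library. That bound rests on control 2, without which it is 15.1-fold, and Insl3 has 63.1% of its 31-base stretches shared with the overlapping gene Jak3. Scarb1, the lipoprotein receptor that brings in cholesterol, had a log2 fold change of -0.91 ± 0.23 (FDR 0.0838), and the melanocortin receptor gene Mc2r of -0.08 ± 0.24 (FDR 0.895). Hsd17b3, an androgen synthesis enzyme that stands on the Sertoli list because fetal Sertoli cells make it, had 0.07 ± 0.16 (FDR 0.875).

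Summed over the 10 genes, the level was 437, 797 and 409 CPM in the mutants and 2245, 1116 and 2128 CPM in the controls. In these bulk samples, fewer cells of a type and less RNA per cell cannot be told apart. The count of 8 depended on which library was left out: it was 1 without mutant 1 or mutant 3, 2 without control 1, 3 without control 3, 8 without mutant 2 and 9 without control 2, and without the filter on low counts it was 2. The direction held for the called genes in each of these. None of 10 genes of cholesterol synthesis and uptake was called by edgeR or DESeq2 (1 lower at an unadjusted p under 0.05, median log2 fold change -0.17). Among 4 genes typical of the adrenal cortex, the other steroid organ of the region, Cyp11b1 (0.132, 0 and 0.157 CPM in the mutants and 4.26, 0.728 and 4.21 CPM in the controls) and Mrap (0.33, 0.6 and 0.577 CPM in the mutants and 4.65, 1.88 and 2.63 CPM in the controls) were called lower, where 1.14% of all genes were lower. The count of 2 was none without mutant 3 or control 1, 1 without mutant 1 or control 3, and 3 without mutant 2 or control 2. Over the 4 adrenal genes the median log2 fold change was -3.43, and 3 had all mutants below all controls. Adrenal cells share steroid genes with Leydig cells, and the part of adrenal tissue in the values of both lists was not tested. In XX control gonads all 9 Leydig genes tested were called lower than in XY controls, with a median log2 difference of -3.64.

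**Figure D4:**
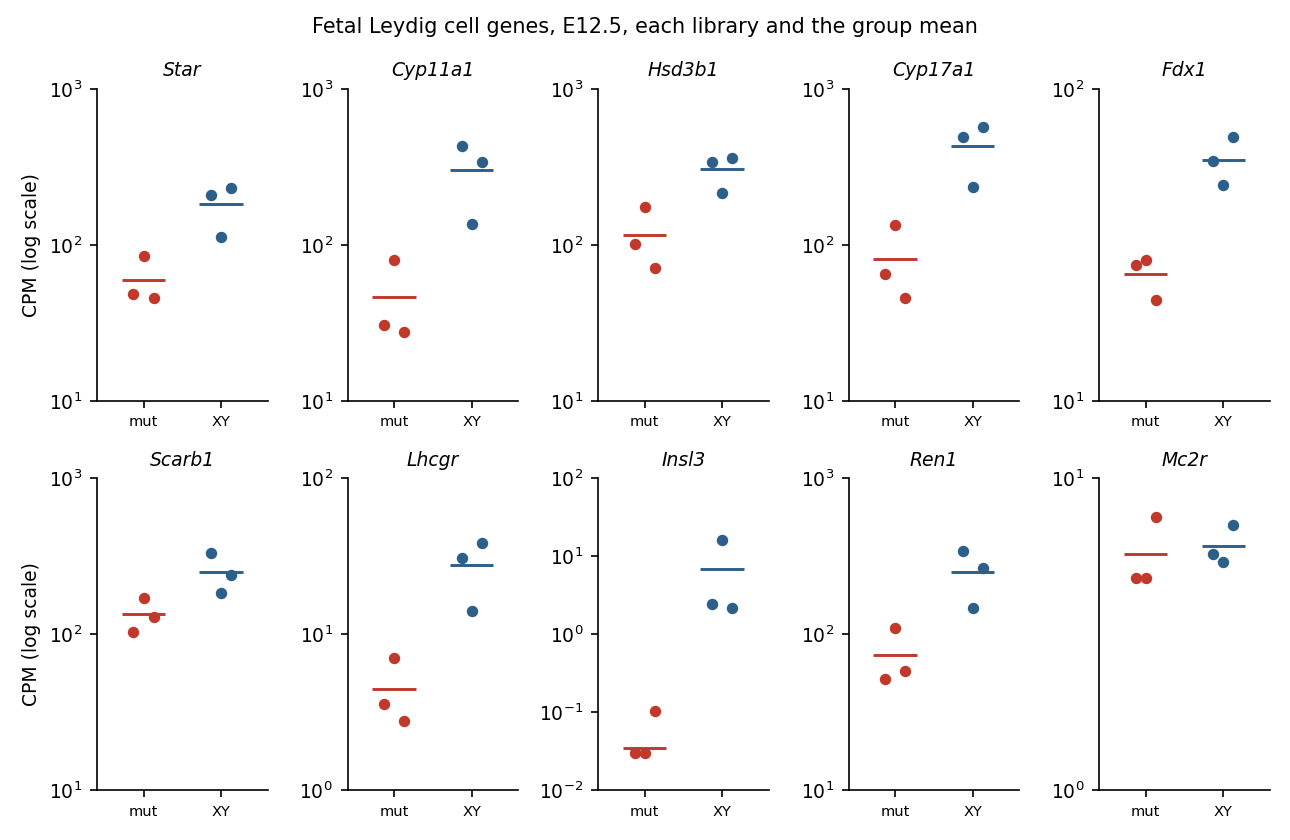
CPM per library (log axis) for 10 fetal Leydig cell genes at E12.5 in mutants (mut) and XY controls (XY), with lines at the group means and values under 0.03 drawn at 0.03. All mutants lie below all controls for each gene but Mc2r.

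At E11.5, in gonad with mesonephros prepared with another library kit, the Leydig genes did not share this direction. The names of the E11.5 mutant columns also give no tissue. Early gonadal markers there summed to 1701, 1888 and 1235 CPM in the mutants and 1621, 1784 and 1711 CPM in the controls. Mutant 3 of E11.5 stood apart. Neuron and glia markers summed to 88.6, 83.8 and 339 CPM in the mutants and 130, 109 and 111 CPM in the controls. The liver, erythroid and periocular sums were also highest in that library, and its part in the E11.5 results was not tested. The E11.5 mutants and their own 3 controls gave 215 calls among 14880 genes (1.44%), 102 higher (0.685%) and 113 lower (0.759%), and 29.8% of genes had groups that did not overlap. Of 8 Leydig genes tested there, 3 were called higher, namely Star (22.7, 32.7 and 23.1 CPM in the mutants and 14.74, 12.46 and 13.82 CPM in the controls), Cyp17a1 (1.94, 1.64 and 1.77 CPM in the mutants and 0.283, 0.136 and 0.213 CPM in the controls) and Hsd3b1 (8.87, 12.8 and 11.3 CPM in the mutants and 3.89, 1.91 and 4.82 CPM in the controls). The median log2 fold change was 0.46. The adrenal list, whose organ shares steroid genes with Leydig cells, had a median of 2.58 over 3 genes tested, and Cyp11b1 was called higher (3.53 ± 0.67, FDR 0.0442). Summed over the list, the level was 6.26, 7.2 and 12.7 CPM in the E11.5 mutants and 1.78, 1.36 and 3.71 CPM in their controls. The part of adrenal tissue in these values was not tested. In Star, Cyp17a1 and Hsd3b1 the E11.5 mutants read below all E12.5 controls, although the tables of the stages were normalised separately.

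The interstitial progenitors, from which fetal Leydig cells arise, had 2 of 10 genes called lower, where 1.14% of all genes were lower. DESeq2 called 5 lower, and 7 were lower at an unadjusted p under 0.05. Jag1, a Notch ligand and 1 of the 2, read 40.9, 53.9 and 36.8 CPM in the mutants and 93.2, 66.6 and 75.8 CPM in the controls (log2 fold change -0.84 ± 0.18, FDR 0.044). The median of the list was -0.48, and 7 of the 10, including Nr2f1, Wnt5a and Tcf21, had all mutants below all controls, and 23.7% of all genes had no overlap. Without mutant 3 or control 3 no member was called, and 1 was without control 1 or control 2. Hedgehog response genes, which report Dhh signalling to these cells, had a median of -0.52, with Gli1 at -0.63 ± 0.19 (FDR 0.128) and Ptch1 at -0.15 ± 0.12 (FDR 0.555). edgeR called none of the 5, 3 were lower at an unadjusted p under 0.05, and DESeq2 called 1 lower, as did edgeR without mutant 2.

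Genes of the inhibin, activin and BMP pathways had 3 of 12 members called lower, where 1.14% of all genes were lower, and none higher, with a median of -0.47. DESeq2 called 5 lower, and at an unadjusted p under 0.05 there were 6 lower and 1 higher. Inhba, the activin βA subunit made by fetal Leydig cells, read 34.4, 28.1 and 26.8 CPM in the mutants and 60.5, 42.2 and 84.6 CPM in the controls (log2 fold change -1.06 ± 0.23, FDR 0.0482). Id3, a BMP-induced inhibitor of helix-loop-helix factors, read 53.9, 69.9 and 69.4 CPM in the mutants and 184, 118 and 111 CPM in the controls (-1.1 ± 0.20, FDR 0.0251). Smad6, an inhibitory SMAD induced by BMP, read 11, 10.8 and 14.4 CPM in the mutants and 28.5, 27.9 and 21.1 CPM in the controls (-1.1 ± 0.18, FDR 0.0175). The ligand genes Bmp2 and Bmp4 had log2 fold changes of 0.11 ± 0.20 and -0.04 ± 0.18, and Inha, the inhibin α subunit, of -1.15 ± 0.28 (FDR 0.0757). The count was 1 without mutant 3, none without control 1, 2 without control 3, and 4 without mutant 2 or control 2. FGF and ERK feedback genes leaned upward without a call by edgeR, with a median of 0.22 over 10 genes, 3 higher at an unadjusted p under 0.05 and 2 called by DESeq2. Spry4, a feedback inhibitor of receptor tyrosine kinases, was nearest, with a log2 fold change of 0.69 ± 0.15 (FDR 0.0544), and 2 were called higher without control 2. No retinoic acid gene of 10 was called by either tool, with 1 higher and 2 lower at an unadjusted p under 0.05 and a median of -0.14.

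Few genes on the lists of the other cell types passed the test. These counts cover list members only, and genes off the lists, such as Mpeg1, Spo11 and Cited2, were called lower. Early gonadal factors such as Nr5a1, Wt1 and Gata4 had log2 fold changes of -0.14 ± 0.18, 0.02 ± 0.13 and 0.09 ± 0.16, and none of the 13 was called by edgeR (1 lower by DESeq2 and at an unadjusted p under 0.05). No germ cell gene of 14 was called by either tool, with 1 lower at an unadjusted p under 0.05. Dazl, an RNA-binding protein of germ cells, read 503, 114 and 368 CPM in the mutants and 300.05, 344 and 497 CPM in the controls, and the sum of the germ cell list was 655 CPM in mutant 2 against 1125 to 1560 CPM in the other 5 libraries, so mutant 2 stood apart here. Of 12 endothelial genes, 11 had positive fold changes, 4 were higher at an unadjusted p under 0.05, and none was called by edgeR. DESeq2 called 2. Emcn and Pecam1, surface proteins of vessels, led with 0.59 ± 0.14 (FDR 0.0637) and 0.55 ± 0.13 (FDR 0.0685). Skeletal muscle markers summed to 13, 17.2 and 48 CPM in the mutants and 24.4, 17.4 and 20.7 CPM in the controls, so mutant 3 stood apart there. None of the 3 muscle genes tested was called by either tool. The part of muscle tissue in the other results was not tested. None of 10 macrophage genes was called by either tool (2 lower at an unadjusted p under 0.05), and of 12 cell cycle genes edgeR called none and DESeq2 called 1 higher, with 2 higher at an unadjusted p under 0.05. Dct, a melanin synthesis gene on the pigment epithelium list, on which Tyr and Tyrp1 did not exceed 3 counts, was called higher (11.1, 9.4 and 10.9 CPM in the mutants and 3.23, 6.28 and 3.23 CPM in the controls, FDR 0.0434), but not without mutant 3, control 1 or control 3.

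Among genes of glycolysis and the hypoxia response, 5 of 12 were called higher and none lower, where 0.79% of all genes were higher. All 12 had positive fold changes, with a median of 0.69, and 11 had no overlap between groups, against 23.7% of all genes. Pgk1, phosphoglycerate kinase, read 228, 273 and 200.01 CPM in the mutants and 80.5, 115 and 90.2 CPM in the controls (log2 fold change 1.3 ± 0.17, FDR 0.00559). Ldha, lactate dehydrogenase A, read 505, 732 and 533 CPM in the mutants and 249, 301 and 228 CPM in the controls (1.19 ± 0.18, FDR 0.0102), with 34.2% of its 31-base stretches shared with other genes. Every mutant exceeded every control by a wide margin for both, and Pgk1 kept its call without any single library. Slc2a1, the glucose transporter GLUT1, read 78.9, 103 and 94.9 CPM in the mutants and 59.6, 58.2 and 51.2 CPM in the controls (0.71 ± 0.14, FDR 0.0338). Hk2, hexokinase, and Pdk1, the kinase that shuts pyruvate out of the mitochondrion, had log2 fold changes of 0.71 ± 0.12 (FDR 0.0209) and 0.66 ± 0.12 (FDR 0.0207). Vegfa, the angiogenic factor of the same response, had 0.37 ± 0.15 (FDR 0.227). Tpi1, a glycolysis gene off this list that was named because it was among the most abundant called genes, read 377, 546 and 391 CPM in the mutants and 277, 241 and 215 CPM in the controls (0.84 ± 0.17, FDR 0.0383). The count of 5 was 2 without mutant 3 and 1 without control 1 or control 3, and 9 without the filter on low counts or by DESeq2. At E11.5 no member was called higher, 1 (Vegfa) was lower, and the median was 0.17.

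Embryonic globins were higher as well. Hbb-bh1 and Hbb-y, β-like globins of primitive red cells, read 270.3, 401 and 188 CPM in the mutants and 16.1, 56.9 and 23.8 CPM in the controls (log2 fold change 3.14 ± 0.44, FDR 0.00878) and 3918, 5946 and 2763 CPM in the mutants and 1059, 1804 and 1264 CPM in the controls (1.61 ± 0.28, FDR 0.0209). Hba-x, the embryonic α-like globin, read 619, 1354 and 550.2 CPM in the mutants and 185, 227 and 135 CPM in the controls (2.2 ± 0.33, FDR 0.0109). These were the 3 called of 13 erythroid genes, where 0.79% of all genes were higher, and mutant 2 was the highest library in each. The adult globins Hba-a1 (-0.23 ± 0.26) and Hbb-bs (-0.71 ± 0.27) had negative log2 fold changes with overlapping groups and were not called. The erythroid factors Gata1 (-0.90 ± 0.29, FDR 0.153) and Klf1 (-0.71 ± 0.29, FDR 0.242) were not called either, but all mutants lay below all controls for both. Another adult globin gene, Hba-a2, had a positive value without a call (0.87 ± 0.30, FDR 0.176) and no overlap between groups. Alas2, the first enzyme of erythroid haem synthesis (0.63 ± 0.24), and the red cell membrane genes Slc4a1 (0.61 ± 0.23) and Epb42 (0.55 ± 0.32) had positive values with overlapping groups and were not called. Over the list 8 of 13 were positive, with a median of 0.55. The list summed to 5268, 8488 and 3937 CPM in the mutants and 2004, 2693 and 2076 CPM in the controls, and the part of red cell content in the other results was not tested. The count of 3 was 2 without mutant 1, 1 without control 1 and none without control 3, and without mutant 2 another 2 members were called lower.

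Small numbers of genes were called in the stress lists, where 0.79% of all genes were higher and 1.14% lower. The inducible HSP70 genes Hspa1a (1.52, 1.13 and 1.36 CPM in the mutants and 5.84, 3.33 and 4.66 CPM in the controls, log2 fold change -1.76 ± 0.29, FDR 0.0168) and Hspa1b (4.95, 3 and 4.09 CPM in the mutants and 16.2, 10.5 and 12 CPM in the controls, -1.66 ± 0.24, FDR 0.00973) were lower, the only 2 called of 8 heat shock genes. They are near-identical copies, so reads may be split between them, and neither was called without mutant 3, and 1 of them without control 1 or control 3. Jun, an immediate early transcription factor, was lower (-0.88 ± 0.16, FDR 0.0273), the only one of 9 such genes called, and it was not called without mutant 3, control 1 or control 2. In the amino acid stress list 2 of 9 were called higher, where 0.79% of all genes were higher. Slc7a11, the cystine importer, read 7.63, 8.27 and 7.19 CPM in the mutants and 2.65, 2.45 and 1.35 CPM in the controls (1.79 ± 0.26, FDR 0.00932) and kept its call without any single library, whereas Asns, asparagine synthetase (0.76 ± 0.16, FDR 0.047), lost it without any one of them. None of 10 p53 response genes was called by either tool or passed an unadjusted p of 0.05. Of 91 genes with a ribosomal protein type of symbol, which include S6 kinases and a binding protein, 1 was called lower, Rpl29 (139.7, 183 and 189 CPM in the mutants and 355, 271 and 257 CPM in the controls, FDR 0.0447), and 49.1% of its 31-base stretches occur in other genes; its call was lost without any one of the 6 libraries. Of the 91, 67 had positive log2 fold changes, with a median of 0.13, 19 were higher and 3 lower at an unadjusted p under 0.05, and DESeq2 called 2 higher and 2 lower.

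The largest well-expressed decrease was that of H19, an imprinted non-coding RNA transcribed from the maternal allele, at chr7:142575529-142578143. It read 15, 11 and 12.4 CPM in the mutants and 2563, 2575 and 2166 CPM in the controls, 189-fold lower (log2 fold change -7.56 ± 0.21, FDR 4.5e-08), with mutants and controls far apart and little spread within either. Igf2, its imprinted neighbour expressed from the paternal allele, read 104, 169.9 and 151 CPM in the mutants and 128, 110.4 and 97 CPM in the controls (0.34 ± 0.18, FDR 0.368), with overlapping groups. H19 was also lower at E11.5, at 9.19, 23.4 and 10.3 CPM in the mutants and 5463, 5816 and 4902 CPM in the controls (-8.57 ± 0.46, FDR 1.6e-04), where Igf2 was called higher (1.11 ± 0.15, FDR 0.0138). In XX control gonads and in XY miR-17~92 KO gonads, H19 had log2 differences of 0.98 and 0.92 from the same XY controls.

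Other imprinted genes gave smaller values. Meg3, a maternally expressed non-coding RNA, read 146, 204 and 192 CPM in the mutants and 359, 267 and 331 CPM in the controls (log2 fold change -0.82 ± 0.17, FDR 0.0371), and Dlk1, the paternally expressed gene of the same cluster, 113, 179 and 148 CPM in the mutants and 343, 216 and 224 CPM in the controls (-0.83 ± 0.21, FDR 0.0843). Kcnq1ot1, a paternally expressed antisense RNA, read 15.6, 16.4 and 17.5 CPM in the mutants and 32, 30.2 and 29.5 CPM in the controls (-0.89 ± 0.13, FDR 0.0108). In all, 2 of 10 tested genes of the maternal list and 1 of 19 of the paternal list were called lower and none higher. Over all genes tested, 1.14% were lower. The medians of the 2 lists were -0.14 and 0.06. Meg3 was not called without mutant 1, mutant 3, control 1 or control 3, and Kcnq1ot1 not without mutant 3.

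Y-linked genes marked all 6 libraries as XY, with large differences among the mutants. Kdm5d, a histone demethylase gene of the Y chromosome, read 6.7, 1.8 and 2.05 CPM in the mutants and 71.5, 74.8 and 79.7 CPM in the controls (log2 fold change -4.33 ± 0.40, FDR 9.5e-04), and it kept its call without any single library. Ddx3y read 121, 22 and 77.7 CPM in the mutants and 86.4, 94.3 and 125 CPM in the controls, with mutant 2 far below the other libraries. Eif2s3y, a translation factor gene, read 92.4, 42.4 and 9.87 CPM in the mutants and 57.6, 78.4 and 96.3 CPM in the controls, with mutant 3 far below. Uty and Uba1y varied less, at 58.3, 35.1 and 44.5 CPM in the mutants and 39.1, 45.9 and 56.7 CPM in the controls and at 49.9, 28.3 and 45.1 CPM in the mutants and 49.8, 47.9 and 48.4 CPM in the controls. Of 7 sex chromosome genes tested Kdm5d alone was called, and Xist, which coats the inactive X in XX cells, read 0.991, 0.733 and 0.682 CPM in the mutants and 1.38, 1.72 and 0.376 CPM in the controls. At E11.5, 2 of 6 such genes were called lower, Kdm5d (-5.03 ± 0.65, FDR 0.0337) and the X-linked Xist (-4.30 ± 0.39, FDR 0.00132), which read 0.116, 0.247 and 0.121 CPM in the mutants and 3.32, 2.86 and 3.24 CPM in the controls. Eif2s3y had -5.62 ± 0.90 without a call (FDR 0.0578). The median over the 6 was -2.62, and the list summed to 29.2, 134.9 and 114 CPM in the mutants and 368, 291 and 339 CPM in the controls. Over all genes tested, 1.14% were called lower at E12.5 and 0.759% at E11.5.

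The 12 largest increases among called genes with at least 5 CPM in the higher group and no overlap were led by copies of other genes. Gm9008 read 5.35, 5.93 and 5.98 CPM in the mutants and 0.192, 0.0383 and 0.15 CPM in the controls, and Tpm3-rs7, a copy of the tropomyosin gene Tpm3, 81.7, 81 and 78 CPM in the mutants and 3.15, 3.1 and 6.09 CPM in the controls (log2 fold change 4.34 ± 0.25, FDR 3.7e-05). Ahcyl, a copy of Ahcy, the gene for S-adenosylhomocysteine hydrolase, read 31.6, 35.7 and 33.6 CPM in the mutants and 4.92, 3.33 and 3.61 CPM in the controls (3.08 ± 0.19, FDR 4.8e-05). Libraries within each group were close together and the groups far apart. For 8 of the 12, at least 75% of 31-base stretches of the transcript occur in other genes, so that reads may be split between the copies and the counts of both are uncertain. The genes that share most stretches with these copies had log2 fold changes of both signs. These were -0.35 for Rnf26 (shared with Gm9008), -0.17 for Tpm3, -0.19 for Ahcy, 0.20 for Pcna, 0.20 for Rpl11, -0.43 for Eif3j1 and -0.46 for Hmga1. The median absolute value over all genes tested was 0.19. Whether reads moved between the copies was not tested. Most of these copies were also higher at E11.5, for example Tpm3-rs7 (5.04 ± 0.14, FDR 8.8e-07) and Ahcyl (3.89 ± 0.16, FDR 1.1e-05).

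Besides Hbb-bh1, increases in genes with few shared stretches were those of Kcne3, a potassium channel subunit (4.39, 6.53 and 4.36 CPM in the mutants and 0.23, 0.422 and 1.2 CPM in the controls, log2 fold change 3.21 ± 0.47, FDR 0.00933), and Htr1b, a serotonin receptor (18.5, 11.3 and 13.5 CPM in the mutants and 2.34, 2.15 and 2.25 CPM in the controls, 2.69 ± 0.23, FDR 5.4e-04). Mid1, a microtubule-associated ubiquitin ligase gene on the X chromosome, read 44.3, 76.9 and 62.8 CPM in the mutants and 11.8, 10.3 and 9.62 CPM in the controls (2.53 ± 0.21, FDR 5.2e-04), with 27.9% of its stretches shared. All 3 kept their calls without any single library.

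Among the 12 largest decreases, besides H19, Kdm5d and 4 Leydig genes, Nr1h5, a nuclear receptor gene, read 0.264, 0.733 and 0.105 CPM in the mutants and 10.5, 13 and 17.1 CPM in the controls (log2 fold change -5.31 ± 0.43, FDR 5.2e-04). Slc15a2, a peptide transporter, read 0.33, 0.0667 and 0.472 CPM in the mutants and 4.95, 3.18 and 9.02 CPM in the controls (-4.17 ± 0.53, FDR 0.00522), and Slit1, a ligand of Robo receptors, 0.297, 0.133 and 0.42 CPM in the mutants and 7.8, 3.87 and 3.83 CPM in the controls (-4.13 ± 0.45, FDR 0.00229). Prkg1, a cGMP-dependent protein kinase, read 1.88, 1.6 and 2.05 CPM in the mutants and 10.6, 8.89 and 18.1 CPM in the controls (-2.74 ± 0.30, FDR 0.00233). These 4 also kept their calls without any single library. The mitochondrial mt-Nd3 read 0.826, 0 and 0.735 CPM in the mutants and 18.8, 7.09 and 42.2 CPM in the controls. It shares 98.1% of its stretches with a nuclear copy and was not called without mutant 1, where mt-Nd6 was called lower instead. With all 6 libraries no other gene of 11 from the mitochondrial genome was called. Abundant called genes included Malat1, a nuclear non-coding RNA (269.7, 314 and 338 CPM in the mutants and 473, 707 and 698 CPM in the controls, -1.03 ± 0.18, FDR 0.0199), not called without mutant 3, control 2 or control 3.

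Of the 276 genes called at E12.5, 49 were also called at E11.5, 42 of them in the same direction, 28 higher and 14 lower at both. These were 17.8% of the E12.5 calls and 22.8% of the E11.5 calls. H19, Kdm5d, Kcnq1ot1, Mid1, Rpl29, Psmd2 and gene copies such as Tpm3-rs7 and Ahcyl were among those called in the same direction at both stages. Star, Cyp17a1, Hsd3b1 and Cyp11b1 were called in opposite directions. By an interaction test across stages, the mutant effect differed between E12.5 and E11.5 in 0.564% of 15412 genes, and in 17 of the 54 named genes called at E12.5. The call at E12.5 that chose these 54 is part of the same contrast, so nothing is read from one share against the other. The stages differed in dissection and library kit as well as in age, which cannot be told apart.

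**Figure D5:**
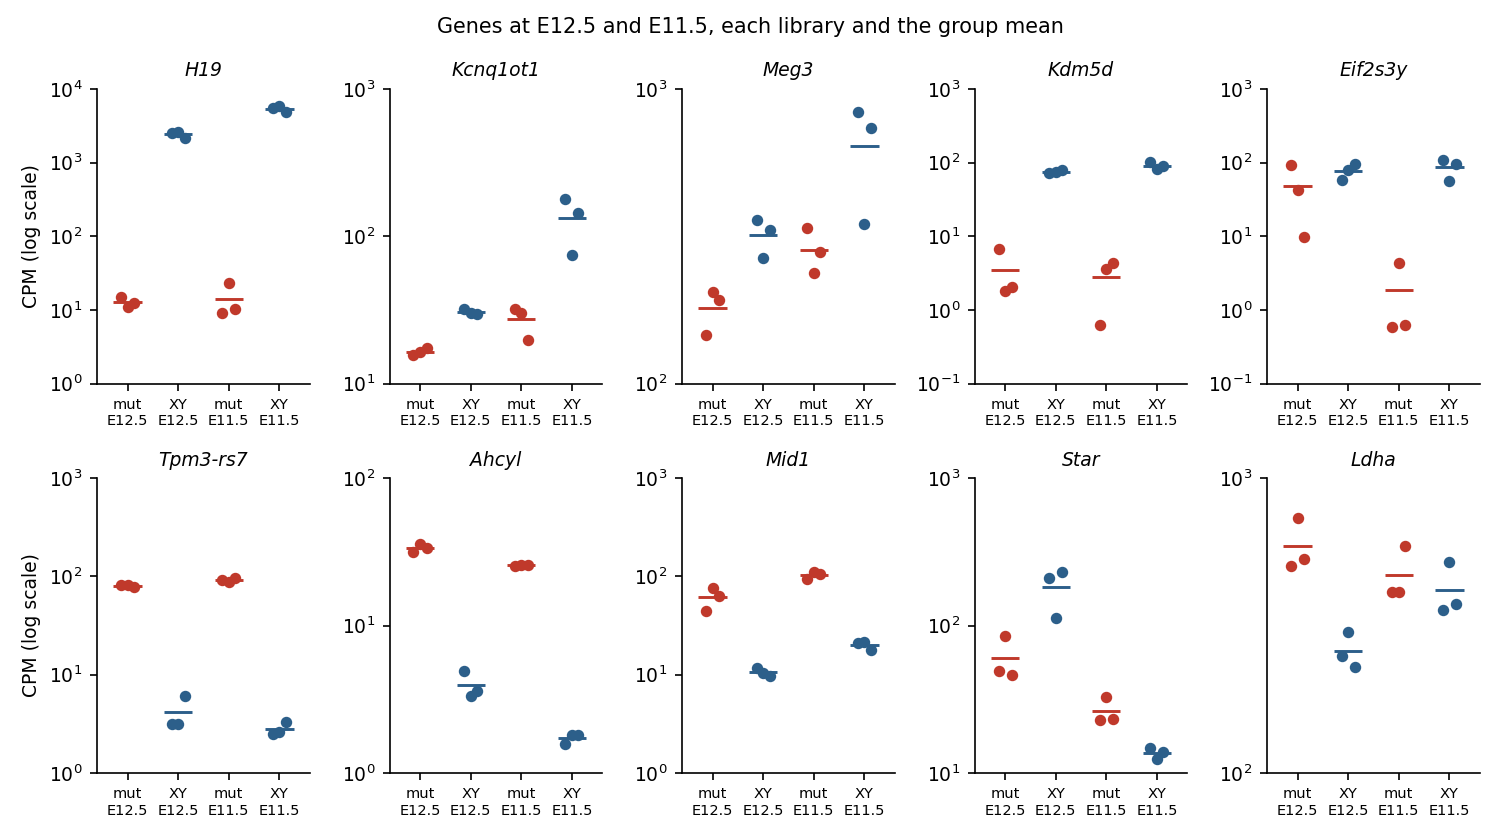
CPM per library (log axis) at E12.5 and E11.5 in mutants (mut) and XY controls (XY), with lines at the group means, for H19, Kcnq1ot1, Meg3, Kdm5d, Eif2s3y, Tpm3-rs7, Ahcyl, Mid1, Star and Ldha. H19 and Kdm5d are low and Tpm3-rs7, Ahcyl and Mid1 high in the mutants at both stages, while Star is lower in the mutants at E12.5 and higher at E11.5.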

How the data were processed

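RNA-seq of E12.5 gonads was sequenced as TruSeq stranded mRNA libraries on an Illumina HiSeq instrument. Per the study's methods, the authors aligned reads to mm10 with subread, summarised them by gene with featureCounts, and deposited raw counts under Ensembl gene IDs. The annotation, strand setting and treatment of multimapping reads are not given in the sources used here. Gene symbols were those deposited with the counts, and GENCODE vM21 (GRCm38) names filled the gaps. Coordinates came from the same GENCODE release. All columns of the deposited tables were used.

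The counts of the 6 libraries (13197693 to 31012525 per library, of 30615 genes) were filtered to at least 1 CPM in at least 2 libraries, TMM-normalised, and tested with the robust quasi-likelihood F test of edgeR 4.0.16 in R 4.3.3, with Benjamini-Hochberg FDR under 0.05. CPM values use TMM-scaled library sizes, and standard errors were derived from the log2 fold change and its F statistic. Intervals are 95% intervals. The E11.5 table and the miR-17~92 table (12 libraries in 1 fit) were fitted likewise, and stage differences were tested as an interaction. A group with no library above 3 counts was set to a floor of 3 counts per library, and floors cover counting error only. No pair of replicates agreed within sampling noise (variance at least 19.2 times that of sampling), so none was counted once.

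Named genes were Foxl2, its neighbours within 1 Mb, the members of the gene lists, the 12 largest increases and decreases among called genes with at least 5 CPM in the higher group and no overlap, and the 10 called genes of highest level. The members and lists were chosen with earlier results of these data known. Shared 31-base stretches were counted on GENCODE transcripts. Alternatives were library size or DESeq2 size factors for scaling, no filter or a filter on 3 libraries, DESeq2 1.42.0, a replicate block, and leaving out each library. The scripts were tested on simulated counts.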

Additional observations from a re-analysis of the deposited data

Results flagged for a closer look

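Of the 54 named genes called at E12.5, 17 had an effect that differed from that at E11.5 by the interaction test in edgeR (FDR under 0.05). The call at E12.5 that chose the 54 is part of this contrast, so their count is a description. This contrast was chosen after results of these data were known, and the stages also differ in dissection and library kit, which cannot be told apart from age. The difference, E12.5 minus E11.5 on the log2 scale, was negative for 14 of them. Genes of the fetal Leydig and adrenal lists made up 7: Cyp11b1 at -8.31, Cyp17a1 at -5.52, Mrap at -4.86, Lhcgr at -3.53, Hsd3b1 at -3.07, Star at -2.59 and Fdx1 at -1.39. The heat shock and immediate early genes Hspa1a, Hspa1b and Jun had -2.71, -2.39 and -1.29, and the BMP response genes Smad6 and Id3 had -1.28 and -1.26. Slit1, which was lower in the mutants at E12.5 and had a log2 fold change of 0.11 at E11.5, had -4.27, and Prkg1 -2.72. The difference was positive for Asns at 1.03, Htr1b at 1.92 and Kcne3 at 3.29.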

How the results depend on the processing

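The counts of called genes were the results most affected by processing. Genes called higher numbered 113, but 231 with no filter on low counts and 286 by DESeq2, and 44 to 113 when a library was left out. Genes called lower numbered 163, but 393, 487 and 30 to 219 under the same changes. Lower Sertoli genes numbered 0, but 1 by DESeq2 and 0 to 1 without a library; pre-granulosa genes had 1 higher and 1 lower without the filter and by DESeq2, and 0 to 1 lower without a library. Leydig genes numbered 8, but 2 with no filter and 1 to 9 without a library; glycolysis genes 5, but 9 with no filter and by DESeq2 and 1 to 6 without a library. Of the 54 named genes called, DESeq2 kept all 54, DESeq2 size factors 52, library size 50, a filter on 3 libraries 49 (of 53 tested) and no filter 43, and none changed direction. Leaving out mutant 1, 2 or 3 kept 39, 47 or 27 of them, and control 1, 2 or 3 kept 28 (of 53), 46 or 29 (of 53). Leaving out mutant 1 turned the sign of Foxl2 (0.24, FDR 0.897), which was not called in either case, and its range without a library was -0.56 to 0.24. With 3 libraries per group, the cause of these changes was not tested.

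Replicate numbers did not pair the samples: deviations of same-numbered mutant and control libraries correlated at -0.63, -0.11 and -0.17. With the number as a replicate block, 76 genes were higher and 109 lower, 7 Leydig and 2 glycolysis genes were called, and 40 of the 54 named genes kept their call.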

Other observations

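A stretch of chromosome 16 held several called genes next to each other, noticed in the data and therefore not tested as a group. Between Eif2b5 and Polr2h (chr16:20498817-20722267, GRCm38), all 12 tested genes had positive log2 fold changes in the mutants, with a median of 0.79. Groups did not overlap for 10 of them, against 23.7% of all genes tested, and 6 were called higher, against 0.79% of all genes. The stretch and its ends were picked from these same values, so nothing is read from its counts against those shares. Psmd2, a proteasome subunit and one of the most abundant called genes, read 832, 773 and 763 CPM in the mutants and 461, 466 and 433 CPM in the controls (log2 fold change 0.80 ± 0.12, FDR 0.012), with 44.7% of its 31-base stretches shared with other genes. Polr2h, an RNA polymerase II subunit, read 68.3, 67.0 and 62.6 CPM in the mutants and 32.4, 34.5 and 33.9 CPM in the controls. The translation initiation genes Eif2b5 and Eif4g1 had log2 fold changes of 0.84 and 0.51, of which the first was called. At E11.5, 11 of the 12 were positive, 6 were called, and the median was 0.75. In XX against XY control gonads the median was 0.06.

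Another run of neighbours on chromosome 19, chosen after its values were seen, comprised the pancreatic lipase genes Pnlip, Pnliprp1 and Pnliprp2, digestive enzymes of the pancreas. They were higher by 1.75, 2.06 and 1.68 on the log2 scale. Their levels were low, with Pnliprp2 at 13.6, 10.7 and 13.7 CPM in the mutants and 3.19, 6.05 and 2.33 CPM in the controls.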
